A study of Mus musculus with 72 samples.

Results

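The genes described here are 31 genes of cholesterol and fatty acid synthesis that the SREBP transcription factors are known to control. They were chosen by name, with no threshold on measured values, from the 45321 genes to which the counted transcripts belong. Each gene was read from 1 transcript, the one with the highest total count over the 72 libraries, and the 4 technical libraries of a sample were added up. All 31 genes passed the filter on low counts, which 18273 genes passed, and the lowest count of any of them in any sample was 60 (Idi1).

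The mRNA of mouse embryonic stem cells was sequenced in 6 groups of 3 samples, controls and cells without Nup133 at days 0, 2 and 3. The product of Nup133 belongs to the Y-complex, which forms part of the nuclear pore's scaffold. The controls were HM1 (Nup133+/+, XY), sequenced as biological replicates 1 and 2, and the blastocyst-derived line 1A4 (Nup133+/+, Sox1gfp/+, XY). The knockout group held line 14 (Nup133-/-, XY) and line 19 (Nup133-/-, likely XY), both derived from HM1 with CRISPR/Cas9, and the blastocyst-derived line 319 (Nup133merm/merm, Sox1gfp/+, XX with gains of chromosomes 8 and 12). Values of 3 samples are given in the order HM1 replicate 1, HM1 replicate 2 and line 1A4 for controls, and lines 14, 19 and 319 for knockouts. All cells were grown on feeder fibroblasts in medium with serum and leukemia inhibitory factor (LIF), and day 0 cells were taken from it after the feeders had been plated off. Day 2 cells had then grown on gelatin in N2B27, a defined medium whose listed components hold no serum and no LIF. Day 3 cells had in addition received fresh medium with all-trans retinoic acid for the last day. The step from day 0 to day 2 therefore changed the medium as a whole, serum and LIF included, the feeder layer and time together. Their parts cannot be told apart. Both HM1 replicates are 1 line, and no source used here says how separate their cultures were, so p-values measure the spread between these samples. Whether each knockout line is 1 clone is not given in the sources used here.

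Cholesterol is built from acetyl-CoA through mevalonate, isoprenoid diphosphates, squalene and lanosterol, and fatty acids are built from acetyl-CoA through malonyl-CoA. SREBP2 (from Srebf2) mainly drives the genes of the sterol branch and SREBP1 (from Srebf1) those of the fatty acid branch. Both are held in the endoplasmic reticulum by INSIG proteins when sterols are plentiful and move with SCAP to the Golgi, where they are cut and freed, when sterols are scarce. Serum carries lipoproteins, from which cells take up cholesterol.

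Promoter sequences of 24 of the 31 genes were found in RefSeq (GRCm38.p6), as windows from 250 bases before to 50 bases after the start of the gene. Of these starts 20 lay within 100 bases of the start of the counted transcript. The others were those of Acaca (22316 bases away), Pmvk (453), Fads2 (243) and Idi1 (105), which stay in the counts. Shown are the 160 bases before the start, 5′ to 3′ on the coding strand, for Hmgcs1, Mvd, Lss, Msmo1, the fatty acid synthase gene Fasn, and Ebp. Mvd, Lss and Msmo1 rose between day 0 and day 2 in both genotypes, and Ebp fell. These 3 risen genes had lower levels in knockouts at day 3, a difference that did not pass its test in all refits. Capitals mark matches to 3 short motifs, searched on both strands. These are the SRE core (TCACNCCAC), the CCAAT box (CCAAT, or ATTGG on the other strand) and the GC box (GGGCGG, or CCGCCC on the other strand). In Fasn the run CCAATTGG holds 2 CCAAT boxes that overlap. The windows lie at chr13:119690191-119690350, plus strand (Hmgcs1), chr8:122443423-122443582, minus strand (Mvd), chr10:76531445-76531604, plus strand (Lss), chr8:64733579-64733738, minus strand (Msmo1), chr11:120824548-120824707, minus strand (Fasn) and chrX:8193513-8193672, minus strand (Ebp).
Hmgcs1: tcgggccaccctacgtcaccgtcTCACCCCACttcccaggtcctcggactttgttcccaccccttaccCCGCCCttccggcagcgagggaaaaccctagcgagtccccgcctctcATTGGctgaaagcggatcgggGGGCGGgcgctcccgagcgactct
Mvd: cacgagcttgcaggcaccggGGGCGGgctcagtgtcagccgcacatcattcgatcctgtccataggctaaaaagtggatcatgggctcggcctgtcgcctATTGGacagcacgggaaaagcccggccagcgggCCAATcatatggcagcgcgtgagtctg
Lss: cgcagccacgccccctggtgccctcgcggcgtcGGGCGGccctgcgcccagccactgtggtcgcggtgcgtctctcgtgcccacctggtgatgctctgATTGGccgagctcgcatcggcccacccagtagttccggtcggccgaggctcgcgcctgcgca
Msmo1: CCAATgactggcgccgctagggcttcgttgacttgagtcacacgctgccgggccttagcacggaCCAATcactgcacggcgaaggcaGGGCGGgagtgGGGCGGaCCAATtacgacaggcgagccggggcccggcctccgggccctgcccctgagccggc
Fasn: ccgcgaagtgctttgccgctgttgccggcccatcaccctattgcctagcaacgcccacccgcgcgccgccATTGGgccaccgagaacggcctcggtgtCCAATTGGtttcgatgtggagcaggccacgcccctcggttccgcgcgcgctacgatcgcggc
Ebp: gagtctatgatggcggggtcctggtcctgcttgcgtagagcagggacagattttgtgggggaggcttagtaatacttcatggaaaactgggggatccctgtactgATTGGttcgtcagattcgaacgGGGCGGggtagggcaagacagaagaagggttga

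The SRE core was found in 1 of the 24 windows of 300 bases, that of Hmgcs1, where it lay 137 to 129 bases before the start. That is 4.17% of the members, beside 1.14% of the 12510 tested genes that had a promoter. A CCAAT box, the motif of the factor NF-Y, was found in 17 of 24 (70.8%), beside 38.4% of the tested genes. A GC box, the motif of SP1, was found in 19 of 24 (79.2%), beside 63.5%. The E-box CACGTG, which SREBP1 and other factors can bind, was found in 3 of 24 (12.5%), beside 9.94%. Ebp, the gene that fell, held 2 CCAAT boxes and 1 GC box in its window, and Mvd, which rose, held the same numbers. A match is a run of letters and not a bound site, and windows without a match say nothing of sites elsewhere.

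Gene counts per sample lay between 16466730 and 54386782. Levels are given as CPM, counts scaled to the size of the library (TMM). Nup133 itself lay between 179.5 and 323.3 CPM in the control samples and between 14.3 and 37.1 CPM in the knockout samples. Summed over 8 pluripotency genes, the level was 4120 to 4521 CPM in day 0 controls, 1215 to 1253 CPM at day 2 and 494 to 580 CPM at day 3. Between day 0 and day 2, Pou5f1 was not called in either genotype. Its log2 fold changes were -0.39 ± 0.25 in controls and -0.52 ± 0.25 in knockouts (SE, edgeR adjusted p = 0.25 and 0.12). The other pluripotency genes were called lower in both. The sum over 8 fibroblast genes was 94.7 to 158 CPM in day 0 controls and 67.6 to 138 CPM in day 0 knockouts. It was 95.0 to 119 and 70.6 to 105 CPM at day 2, and 142 to 193 and 135 to 206 CPM at day 3. Most of that sum came from Col1a1 (13.8 to 97.05 CPM over the 18 samples), Col1a2 (14.3 to 55.8 CPM), Fbn1 (6.63 to 49.9 CPM), Col3a1 (5.22 to 40.3 CPM) and Thy1 (2.35 to 32.8 CPM). Of the other three, Postn reached at most 4.04 CPM, Dcn at most 1.66 CPM and Lum, at 0 in 2 samples, at most 0.234 CPM. The list did not move as one. Between day 0 and day 2 in controls Thy1 rose by 3.11 ± 0.30 and Dcn by 1.31 ± 0.44 on the log2 scale, while Col1a1 changed by -0.996 ± 0.31 and Col1a2 by -1.19 ± 0.32 (SE, edgeR adjusted p from 4e-06 to 0.029). In knockouts Thy1 and Dcn were called higher and Col1a1 and Postn lower in that step, and between genotypes Postn was called lower at days 2 and 3 (-5.21 and -3.38, adjusted p = 0.004 and 0.0054). Their part in the results was not tested. Line 19 at day 2 stood apart from the other 17 samples. It had the lowest count, the fewest genes with at least 10 counts (14533, against 15202 to 17299) and lower values the longer the transcript. Between transcripts longer than 4279 bases and those of at most 1611 bases, the median deviation from the mean of the other samples of the same day differed by -1.14 there, on the log2 scale, and by -0.202 to 0.289 in the others. Most counts of calls, and the changes of most members named from day 0 to day 2 in knockouts, are given with and without it.

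In controls, most genes of both branches rose between day 0 and day 2. The threshold for a call was 0.05 for the p adjusted over all genes tested. Of the 31 genes, 24 were called higher (77.4%) and 1, Ebp, was called lower (3.23%), where 35.2% of all genes tested were called, 19.7% higher and 15.5% lower. The median log2 fold change of the 31 was 0.99, beside 0.01 over all genes tested. Their summed level went from 4921 ± 128 CPM (SD, n = 3) to 9449 ± 1060 CPM. In bulk samples, more RNA per cell and more cells of a type cannot be told apart. In the knockout lines 21 of 31 were called higher (67.7%) and again Ebp was called lower, where 35.9% of all genes were called, 20.8% higher and 15.1% lower. The median was 0.63, and the summed level went from 4312 ± 82.2 to 6187 ± 1210 CPM. All 21 were among the 24 of the controls, and the 3 others were Acaca, Fasn and Nsdhl. Without line 19 at day 2 the counts were 28 higher and 1 lower in controls and 23 higher and 1 lower in knockouts, where 46.2% and 39% of all genes were called. Without HM1 replicate 1 the controls had 17 higher and 0 lower (15.3% of all genes called), and without HM1 replicate 2 they had 18 and 0 (17.1%). Without line 14 the knockouts had 13 called in all, beside 20.6% of all genes.

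**Figure D1:**
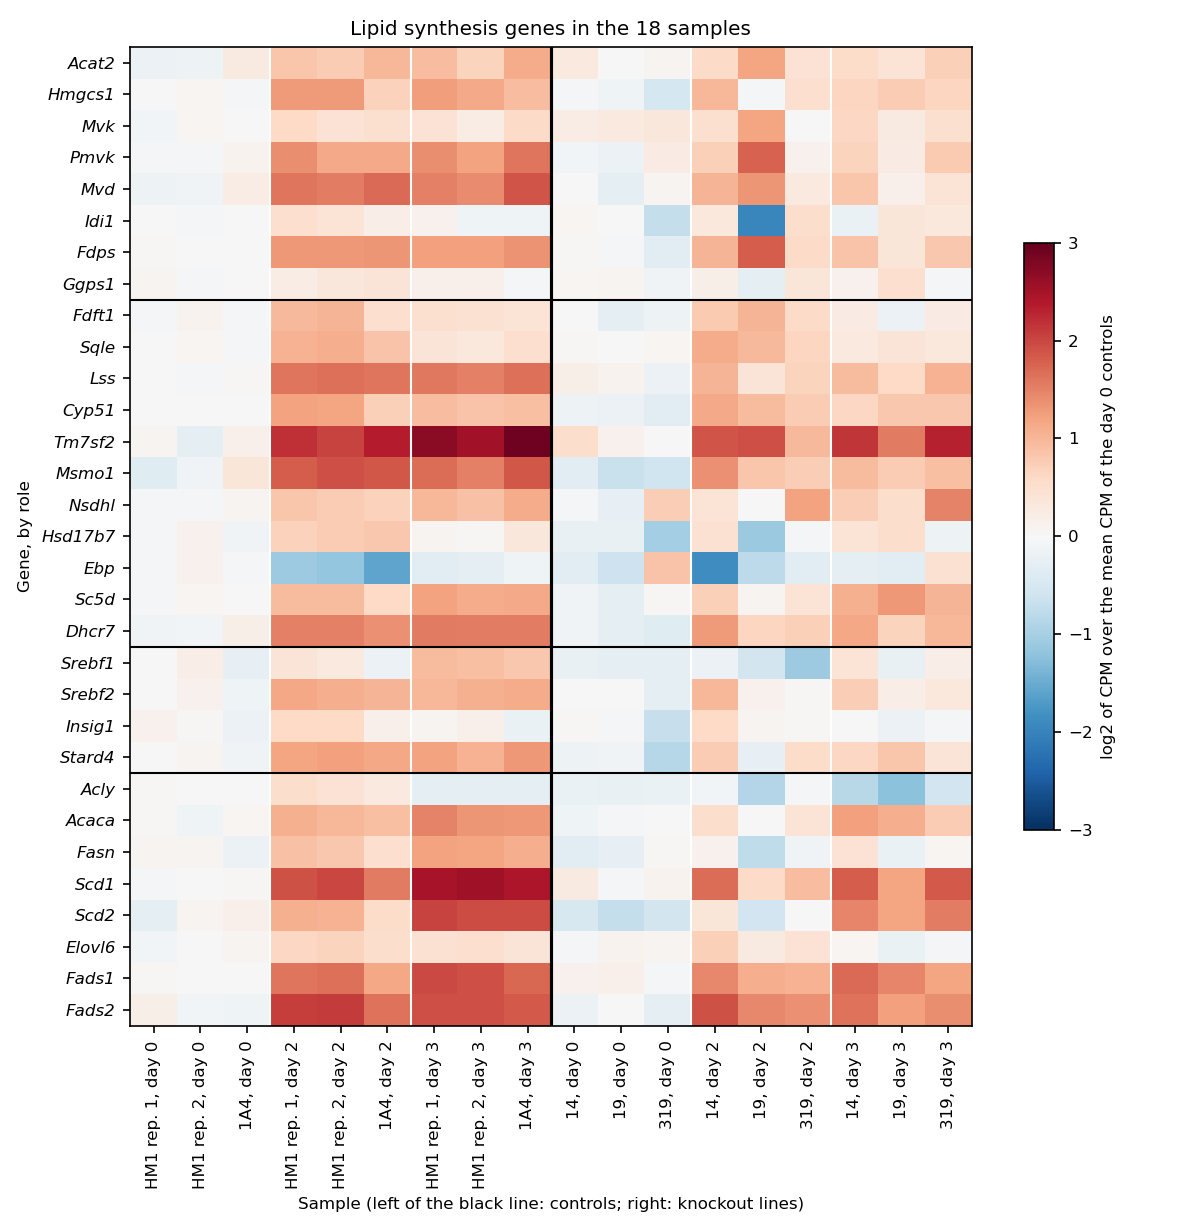
Levels of the 31 genes (rows, ordered by role, with black lines between the 4 role groups) in the 18 samples (columns), as log2 of the CPM over the mean CPM of the 3 day 0 controls, with red for higher and blue for lower. Day 2 and day 3 controls are red in most rows, knockout samples are paler, and Ebp is blue at day 2.

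Of the 8 genes from acetyl-CoA to the isoprenoid diphosphates, 5 were called higher at day 2 in controls and the same number in knockouts (Acat2, Hmgcs1, Pmvk, Mvd and Fdps), with medians of 0.98 and 0.70. Positions are those of the counted transcript on GRCm38, in the GENCODE M21 annotation. Mvd (chr8:122433601-122443422, minus strand) encodes mevalonate diphosphate decarboxylase, which makes isopentenyl diphosphate. It was at 43.3, 44.2 and 56.1 CPM in day 0 controls and 146, 139 and 156 CPM at day 2, so the days did not overlap. The log2 fold change was 1.62 ± 0.24 (SE, adjusted p = 0.00012). In the knockouts Mvd was at 47.1, 39.0 and 50.7 CPM and then 97.0, 119 and 58.5 CPM. Line 319 had moved least, and the change was 1.01 ± 0.24 (SE, adjusted p = 0.004).
Fdps (chr3:89093588-89101888, minus strand) encodes farnesyl diphosphate synthase. It went from 113, 109 and 109 CPM to 273, 274 and 275 CPM in controls, by 1.31 ± 0.23 (SE, adjusted p = 0.00042). The day 2 controls lay within 2 CPM of each other. In the knockouts it went from 114, 106 and 89.1 to 223, 387 and 164 CPM, by 1.31 ± 0.23 (SE, adjusted p = 0.00041). The highest of these was line 19, and without that sample the change was 0.93 (adjusted p = 1.9e-04). Fdps shares 1124 exon bases with Gm43738 on the same strand, so reads of the pair cannot be told apart.
Pmvk (chr3:89459118-89469013, plus strand), phosphomevalonate kinase, went from 37.1, 36.3 and 41.0 to 99.95, 83.7 and 84.0 CPM in controls, by 1.23 ± 0.30 (SE, adjusted p = 0.005). In the knockouts it was at 35.9, 33.6 and 45.5 and then 62.8, 130.2 and 42.0 CPM. Line 19 was high and line 319 was lower at day 2 than at day 0. The knockout change was 1.03 ± 0.30 (SE, adjusted p = 0.015), and without line 19 at day 2 it was 0.46 (adjusted p = 0.063). Hmgcs1 (chr13:119690446-119708082, plus strand), the cytosolic HMG-CoA synthase, rose by 1.09 ± 0.20 (SE, adjusted p = 0.00078) in controls and 0.77 ± 0.20 (SE, adjusted p = 0.0085) in knockouts. Acat2, an acetyl-CoA acetyltransferase, rose by 0.88 ± 0.19 in controls and 0.63 ± 0.19 in knockouts, and the latter was 0.35 (adjusted p = 0.052) without line 19 at day 2. The 3 genes of this group that were not called in either genotype were Mvk, Idi1 and Ggps1, with log2 fold changes of 0.51, 0.38 and 0.32 in controls. The sum over the 8 genes went from 738 ± 15.1 to 1598 ± 179 CPM in controls and from 685 ± 73.2 to 1219 ± 188 CPM in knockouts.

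Of the 11 genes from squalene to cholesterol, 9 were called higher and Ebp lower in controls, and 8 were called higher and Ebp lower in knockouts (medians 1.01 and 0.89). Tm7sf2 (chr19:6062822-6067842, minus strand) encodes a sterol C14 reductase and showed the largest fold of the 31 in controls in this step. In knockouts Fads2 and Msmo1 had larger ones. It rose from 5.92, 4.64 and 6.22 CPM in day 0 controls to 25.7, 23.0 and 28.4 CPM at day 2, by 2.20 ± 0.27 (SE, adjusted p = 2.4e-05). The knockouts went from 8.09, 6.09 and 5.53 to 20.9, 21.2 and 10.9 CPM, by 1.43 ± 0.26 (SE, adjusted p = 0.00066). Line 319 lay lowest at day 2 and still above every day 0 sample.
Msmo1 (chr8:64718227-64733578, minus strand) encodes the sterol C4-methyl oxidase. Its controls went from 75.3, 89.4 and 124 to 342, 365 and 349.7 CPM, a change of 1.88 ± 0.20 (SE, adjusted p = 7.7e-06). Its knockouts went from 77.1, 61.0 and 64.0 to 250.1, 171 and 162 CPM, a change of 1.53 ± 0.20 (SE, adjusted p = 3.2e-05). The days did not overlap in either genotype, and at day 2 every knockout sample lay under every control sample.
Lss (chr10:76531612-76557138, plus strand), lanosterol synthase, closes squalene epoxide into the first sterol. It stood at 108, 102 and 110.0 CPM in day 0 controls and 325, 335 and 322 CPM at day 2, which is 1.62 ± 0.16 (SE, adjusted p = 5.2e-06). In knockouts it stood at 121, 114 and 95.1 and 216, 139 and 168 CPM, which is 0.67 ± 0.16 (SE, adjusted p = 0.0046). The genotypes overlapped at day 0 and did not overlap at day 2. Lss shares 381 exon bases with 4930483K19Rik on the opposite strand, whose reads are separate only if the counting used strand.
Ebp (chrX:8185329-8193512, minus strand), the sterol delta8-delta7 isomerase, moved against its group. The controls fell from 28.4, 32.4 and 28.5 to 14.1, 13.3 and 9.88 CPM, with a log2 fold change of -1.24 ± 0.33 (SE, adjusted p = 0.0079). The knockouts went from 23.3, 19.5 and 53.7 to 8.17, 17.4 and 23.5 CPM, with -0.95 ± 0.33 (SE, adjusted p = 0.032). Ebp fell in both HM1 replicates and in every other line, and line 319 was the highest knockout sample at each day. The call in controls was lost without HM1 replicate 1 or 2 (highest adjusted p 0.072), and that in knockouts in 5 of 16 refits, among them those without HM1 replicate 1 or 2 or line 14 (highest adjusted p 0.14).
Of the other seven, Dhcr7, the last step to cholesterol, rose by 1.47 ± 0.17 in controls and 1.15 ± 0.17 in knockouts. Cyp51, the lanosterol demethylase, rose by 1.04 ± 0.14 and 1.17 ± 0.14. Sqle, squalene epoxidase, rose by 1.01 ± 0.13 and 0.89 ± 0.13. Fdft1, squalene synthase, rose by 0.84 ± 0.16 and 0.93 ± 0.16, and shares 771 exon bases with Ctsb on the opposite strand. Sc5d, a sterol desaturase, rose by 0.83 ± 0.16 and 0.54 ± 0.16. Nsdhl, a sterol dehydrogenase, rose in controls (0.78 ± 0.22, SE, adjusted p = 0.012), and its knockout value was 0.41 ± 0.22 (SE, adjusted p = 0.16). Hsd17b7, the sterol 3-keto reductase, was called in neither genotype, with 0.77 ± 0.29 (SE, adjusted p = 0.052) and 0.37 ± 0.29 (SE, adjusted p = 0.35). The group's sum went from 749.8 ± 29.5 to 1747 ± 127 CPM in controls and from 695 ± 34.4 to 1305 ± 174 CPM in knockouts.

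Among the 4 genes of regulation and transport, Srebf2, Insig1 and Stard4 were called higher at day 2 in both genotypes, and Srebf1 in neither. Srebf2 (chr15:82147181-82205379, plus strand) encodes SREBP2. It was at 241, 268 and 222 CPM in day 0 controls and 546, 521 and 496 CPM at day 2, a rise of 1.10 ± 0.20 (SE, adjusted p = 0.00058). The knockouts were at 245, 241 and 200 CPM and then 482, 267 and 248 CPM, with 0.53 ± 0.20 (SE, adjusted p = 0.046). At day 2 line 14 lay close to the controls, and lines 19 and 319 lay far under them. The knockout call was lost in 7 of 16 refits, among them those without line 14 or any 1 of the controls (highest adjusted p 0.30).
Stard4, a carrier of cholesterol within the cell, went from 79.2, 83.8 and 74.0 to 180.3, 184 and 178 CPM in controls, by 1.20 ± 0.23 (SE, adjusted p = 0.0008). In knockouts it went from 71.2, 73.3 and 44.0 to 135, 66.8 and 116 CPM, by 0.77 ± 0.22 (SE, adjusted p = 0.014). Line 19 was the only line in which Stard4 was lower at day 2 than at day 0.
Insig1 (chr5:28071363-28078662, plus strand), which retains SREBPs in the endoplasmic reticulum and is itself an SREBP target, changed less. It was at 82.8, 77.1 and 67.0 and then 114, 114 and 84.7 CPM in controls, which is 0.45 ± 0.15 (SE, adjusted p = 0.031). In knockouts it was at 77.2, 73.2 and 46.8 and then 114, 79.7 and 78.0 CPM, which is 0.48 ± 0.15 (SE, adjusted p = 0.024). The days did not overlap in either genotype, but the calls were lost in 6 and 8 of 16 refits, among them those without any 1 of the controls (highest adjusted p 0.24 in controls and 0.12 in knockouts).
Srebf1 (chr11:60199089-60220604, minus strand) encodes SREBP1. Its levels were 107, 122 and 89.9 CPM and then 139, 129 and 94.2 CPM in controls, a difference of 0.18 ± 0.19 (SE, adjusted p = 0.5). It was the only one of the 31 genes whose day 0 and day 2 controls overlapped. The other 29 that did not overlap upwards, and Ebp downwards, compare with 31.7% and 30.1% of all genes tested. In knockouts the levels of Srebf1 were 91.0, 87.8 and 88.2 CPM and then 94.2, 72.9 and 49.99 CPM, a difference of -0.33 ± 0.19 (SE, adjusted p = 0.2).

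All 8 genes of fatty acid synthesis and desaturation had positive log2 fold changes in controls and 7 were called higher (median 0.95). In knockouts 5 were called higher (median 0.50), and Acaca and Fasn, which act at the start of the chain, were not among them. Fads2 (chr19:10062765-10101746, minus strand), the delta6 desaturase, went from 54.4, 45.7 and 43.8 to 203, 204 and 149.5 CPM in controls, by 1.94 ± 0.15 (SE, adjusted p = 8.5e-07). In knockouts it went from 42.8, 48.0 and 40.1 to 181, 131 and 124 CPM, by 1.73 ± 0.15 (SE, adjusted p = 1.5e-06). All day 2 samples of both genotypes lay above all day 0 samples.
Fads1 (chr19:10182888-10196874, plus strand), the delta5 desaturase, went from 68.9, 66.9 and 66.9 to 207, 213 and 149.8 CPM in controls and from 74.3, 74.8 and 64.6 to 182, 144 and 138 CPM in knockouts. Its changes were 1.47 ± 0.13 (SE, adjusted p = 2.0e-06) and 1.12 ± 0.13 (SE, adjusted p = 1.5e-05). Scd1 (chr19:44394455-44407709, minus strand), a stearoyl-CoA desaturase, went from 110.2, 115 and 116 to 429.9, 459 and 337 CPM in controls, by 1.84 ± 0.24 (SE, adjusted p = 4.3e-05). In knockouts Scd1 went from 137, 111 and 122 to 364, 170.2 and 215 CPM, by 1.02 ± 0.24 (SE, adjusted p = 0.0035), and line 14 alone reached the range of the controls.
Acaca (chr11:84173122-84401651, plus strand) encodes acetyl-CoA carboxylase, which makes malonyl-CoA. It rose from 63.7, 56.7 and 64.8 to 129, 123 and 116 CPM in controls, by 0.99 ± 0.15 (SE, adjusted p = 0.00015). The knockouts were at 56.8, 59.8 and 62.7 and then 88.7, 61.7 and 82.6 CPM, with 0.38 ± 0.15 (SE, adjusted p = 0.06). Line 19 was level at 59.8 and 61.7 CPM.
Fasn (chr11:120805846-120824547, minus strand), fatty acid synthase, rose from 987, 994 and 826 to 1728, 1630 and 1335 CPM in controls, by 0.74 ± 0.21 (SE, adjusted p = 0.013). In the knockouts it was at 736, 791 and 965 and then 1021, 554 and 871 CPM, with -0.03 ± 0.21 (SE, adjusted p = 0.93). Line 14 was higher at day 2 than at day 0, and lines 19 and 319 were lower. The control call of Fasn was lost without any 1 of the controls and in HM1 with its derived lines only (highest adjusted p 0.12).
Scd2 (chr19:44293674-44306864, plus strand), the other stearoyl-CoA desaturase measured, was at 599.9, 782 and 823 and then 1540, 1519 and 1084 CPM in controls and at 526, 451 and 502 and then 952, 494 and 736 CPM in knockouts. The changes were 0.91 ± 0.21 (SE, adjusted p = 0.0038) and 0.56 ± 0.21 (SE, adjusted p = 0.049). The control call was lost without HM1 replicate 1 or 2 (highest adjusted p 0.11). The knockout call was lost in 7 of 16 refits, among them those without line 14, line 319 or any 1 of the controls (highest adjusted p 0.29). Elovl6, which lengthens palmitate, rose by 0.60 ± 0.13 and 0.44 ± 0.13. Acly (chr11:100476353-100528000, minus strand), which makes cytosolic acetyl-CoA from citrate for both branches, was not called, with 0.42 ± 0.19 (SE, adjusted p = 0.093) in controls and -0.08 ± 0.19 (SE, adjusted p = 0.77) in knockouts. The group's sum went from 2929 ± 83.2 to 5177 ± 691 CPM in controls and from 2486 ± 123 to 3061 ± 820.0 CPM in knockouts.

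Line by line, 30 of the 31 genes were higher at day 2 than at day 0 in HM1 replicate 1, HM1 replicate 2, line 1A4 and line 14. The number was 26 in line 319 and 23 in line 19. The median log2 ratio was 1.06, 0.96 and 0.73 in the controls and 0.82, 0.29 and 0.58 in lines 14, 19 and 319. Both HM1 replicates and every other line moved up for 21 genes, all moved down for 1 (Ebp), and 9 genes were mixed. The HM1 replicates are 1 line, so their agreement is not independent. Such counts per line were not made over all genes tested. In knockouts 17 genes had all day 2 samples above all day 0 samples, beside 18.8% of all genes tested, and 0 had the reverse, beside 16.1%. Line 19 at day 2 is the sample with the transcript length trend, whose part in these values was not tested.

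The knockout step from day 0 to day 2 was also fitted without line 19 at day 2, which leaves lines 14 and 319 at that day. The median over the 31 was then 0.719. By role it was 0.56 for the isoprenoid steps, 0.835 from squalene on, 0.655 for regulation and transport and 0.67 for fatty acids. The summed level at day 2 was 7522 CPM in line 14 and 5867 CPM in line 319. Pmvk and Acat2 were no longer called, and Idi1, Nsdhl, Hsd17b7 and Acaca were called higher.
In the sterol branch the changes in that fit were 0.78 ± 0.22 (SE, adjusted p = 0.012) for Mvd, 1.03 ± 0.12 (SE, adjusted p = 2.0e-05) for Hmgcs1, 0.82 ± 0.13 (SE, adjusted p = 0.00025) for Lss and 1.29 ± 0.27 (SE, adjusted p = 0.0014) for Tm7sf2. Msmo1 was at 1.62 ± 0.20 (SE, adjusted p = 2.1e-05) and Ebp at -1.13 ± 0.36 (SE, adjusted p = 0.023). Of the regulators, Srebf2 was at 0.70 ± 0.18 (SE, adjusted p = 0.0065), Insig1 at 0.61 ± 0.13 (SE, adjusted p = 0.0019), Stard4 at 1.06 ± 0.15 (SE, adjusted p = 0.0001) and Srebf1 at -0.29 ± 0.20 (SE, adjusted p = 0.27). Dhcr7 was at 1.28, Cyp51 at 1.205, Sqle at 0.889, Fdft1 at 0.835, Sc5d at 0.702 and Elovl6 at 0.552, all still called. Each of these kept the sign it had with line 19.
Fads2 was at 1.84 ± 0.14 (SE, adjusted p = 3.0e-07), Fads1 at 1.22 ± 0.11 (SE, adjusted p = 1.9e-06), Scd1 at 1.25 ± 0.20 (SE, adjusted p = 0.00021) and Scd2 at 0.79 ± 0.17 (SE, adjusted p = 0.002). Acaca was at 0.54 ± 0.12 (SE, adjusted p = 0.0028) and was called. Fasn, at 0.20 ± 0.17 (SE, adjusted p = 0.35), and Acly, at 0.15 ± 0.13 (SE, adjusted p = 0.39), were not called and had changed sign, from -0.03 and -0.08.

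**Figure D2:**
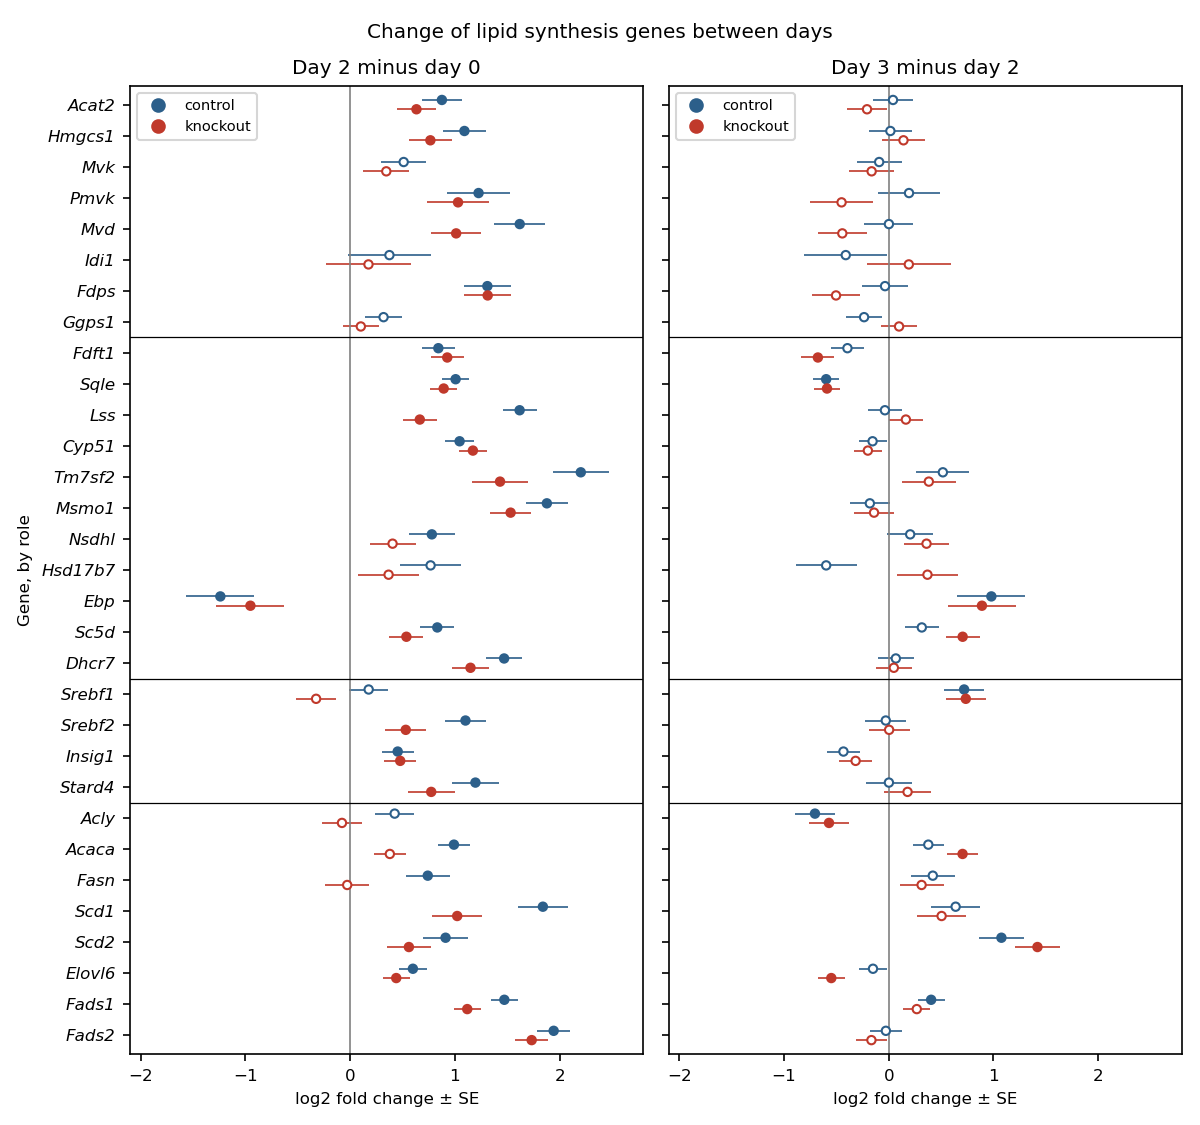
Log2 fold change ± SE of each gene (rows, by role) from day 0 to day 2 (left panel) and from day 2 to day 3 (right panel) in controls (blue) and knockouts (red), with filled points for an adjusted p below 0.05. In the left panel 24 control points and 21 knockout points are filled to the right of 0 and Ebp is filled to the left, and in the right panel the points lie on both sides of 0.

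Between day 2 and day 3, when retinoic acid was added, the genes no longer moved together. The 2 steps share their day 2 samples, so a high or low day 2 sample enters both with opposite sign. In controls 4 of 31 were called higher (12.9%) and 2 lower (6.45%), where 21.4% of all genes were called, 12.5% higher and 8.92% lower, and the median was 0.00. In knockouts 5 were called higher (16.1%) and 4 lower (12.9%), where 33.6% of all genes were called, 17.6% higher and 16% lower, and the median was 0.10. These shares lie near those of all genes. In knockouts 4 genes had every day 3 sample above every day 2 sample and 4 the reverse, beside 19.9% and 14.9% of all genes. In controls these numbers were 11 and 8, beside 29.2% and 28.1%. Without line 19 at day 2 the control counts were 7 and 5 and the knockout counts 5 and 5, where 32.2% and 32% of all genes were called, and the medians were -0.001 and -0.081. Without HM1 replicate 1 or HM1 replicate 2 the controls had 1 gene of the 31 called, higher (6.8% and 6.57% of all genes). Without line 1A4 they had 2 (12.7%), and without line 19 at all days 13 (33.9%).
Scd2, Srebf1 and Ebp were called higher in both genotypes. The level of Scd2 at day 3 was 3013, 2851 and 2871 CPM in controls and 2036, 1676 and 2127 CPM in knockouts, above every day 2 sample, and the changes were 1.08 ± 0.21 (SE, adjusted p = 0.0021) and 1.42 ± 0.21 (SE, adjusted p = 0.00019). Srebf1 was at 205, 200 and 185 CPM in controls and 141, 90.6 and 122 CPM in knockouts, with 0.72 ± 0.19 (SE, adjusted p = 0.012) and 0.74 ± 0.19 (SE, adjusted p = 0.0083). Ebp came back to 24.0, 24.3 and 27.4 CPM in controls and was at 24.9, 23.6 and 41.1 CPM in knockouts, with 0.98 ± 0.32 (SE, adjusted p = 0.041) and 0.89 ± 0.33 (SE, adjusted p = 0.046). Each of these lines had more Ebp at day 3 than at day 2. The Ebp calls were lost without HM1 replicate 1 or 2 and in other refits (highest adjusted p 0.19 and 0.21).
Sqle and Acly were called lower in both genotypes. Sqle was at 298, 307 and 262 CPM in day 2 controls and 189, 179 and 204 CPM at day 3, and at 312, 281 and 225 and then 175, 188 and 180.0 CPM in knockouts. It fell in both HM1 replicates and in every other line, with log2 fold changes of -0.60 ± 0.13 (SE, adjusted p = 0.0031) and -0.59 ± 0.13 (SE, adjusted p = 0.0024). Acly was at 1164, 1094 and 981 CPM in day 2 controls and 652, 669 and 672 CPM at day 3, which is -0.70 ± 0.19 (SE, adjusted p = 0.014). In knockouts it was at 758, 439 and 791 and then 455, 344 and 540.2 CPM, which is -0.57 ± 0.19 (SE, adjusted p = 0.03). The call of Acly in controls was lost without any 1 of the controls (highest adjusted p 0.18). That in knockouts was lost without HM1 replicate 1 or 2 or line 14, and with line 1A4 and line 319 both left out (highest adjusted p 0.17).
The calls in 1 genotype were Fads1, higher in controls (0.41 ± 0.13, SE, adjusted p = 0.036, lost in 6 of 16 refits, among them those without any 1 of the controls, with an adjusted p of up to 0.23), and in knockouts Acaca and Sc5d, higher (0.70 ± 0.15, SE, adjusted p = 0.0025 and 0.71 ± 0.16, SE, adjusted p = 0.0042), and Fdft1 and Elovl6, lower (-0.68 ± 0.16, SE, adjusted p = 0.0045 and -0.55 ± 0.13, SE, adjusted p = 0.0052). In the other genotype Fads1 was at 0.27, Acaca at 0.38, Sc5d at 0.32, Fdft1 at -0.39 and Elovl6 at -0.15, each with the same sign. No test of these differences between genotypes passed (adjusted p from 0.56 to 0.79).

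In controls the comparison of day 3 with day 0 called 24 of the 31 higher and 0 lower (median 1.11). Of all genes tested it called 51%, 27.7% higher and 23.3% lower. In knockouts 17 were called higher and 1, Acly, lower (median 0.74), where 50.6% of all genes were called, 28.4% higher and 22.2% lower. Day 3 lay wholly above day 0 for 25 genes in controls (37% of all genes) and wholly under it for 2 (33.4%). In knockouts the numbers were 19 (30.6%) and 1 (27.1%). Without line 19 at day 2 the calls were 25 higher and 0 lower in controls and 21 and 1 in knockouts. That refit called 60.3% and 60.5% of all genes. The summed level at day 3 was 11250 ± 240.0 CPM in controls and 7335 ± 791 CPM in knockouts. The fatty acid group made up most of that sum, with 7114 ± 210.0 CPM in controls and 4360 ± 615 CPM in knockouts. Its largest changes in controls were Scd1 (2.48 ± 0.25, SE, adjusted p = 1.3e-06), Scd2 (1.99 ± 0.22, SE, adjusted p = 3.2e-06) and Fads2 (1.92 ± 0.15, SE, adjusted p = 2.3e-07). In knockouts they were 1.53 ± 0.24 (SE, adjusted p = 7.5e-05), 1.98 ± 0.22 (SE, adjusted p = 2.7e-06) and 1.57 ± 0.15 (SE, adjusted p = 8.2e-07) for the same genes. The sums of the sterol groups at day 3 were 1598 ± 65.2 CPM for the isoprenoid steps and 1570 ± 83.2 CPM from squalene on in controls, and 1140 ± 35.0 and 1193 ± 91.1 CPM in knockouts. Acly ended under its day 0 level in every line, with -0.28 ± 0.19 (SE, adjusted p = 0.23) in controls and -0.65 ± 0.19 (SE, adjusted p = 0.0096) in knockouts. Its day 0 levels were 820.2, 797.9 and 798.9 CPM in controls and 702.3, 688.9 and 697.5 CPM in knockouts. Sc5d rose by 1.24 ± 0.16 in knockouts and by 1.15 ± 0.16 in controls.

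**Figure D3:**
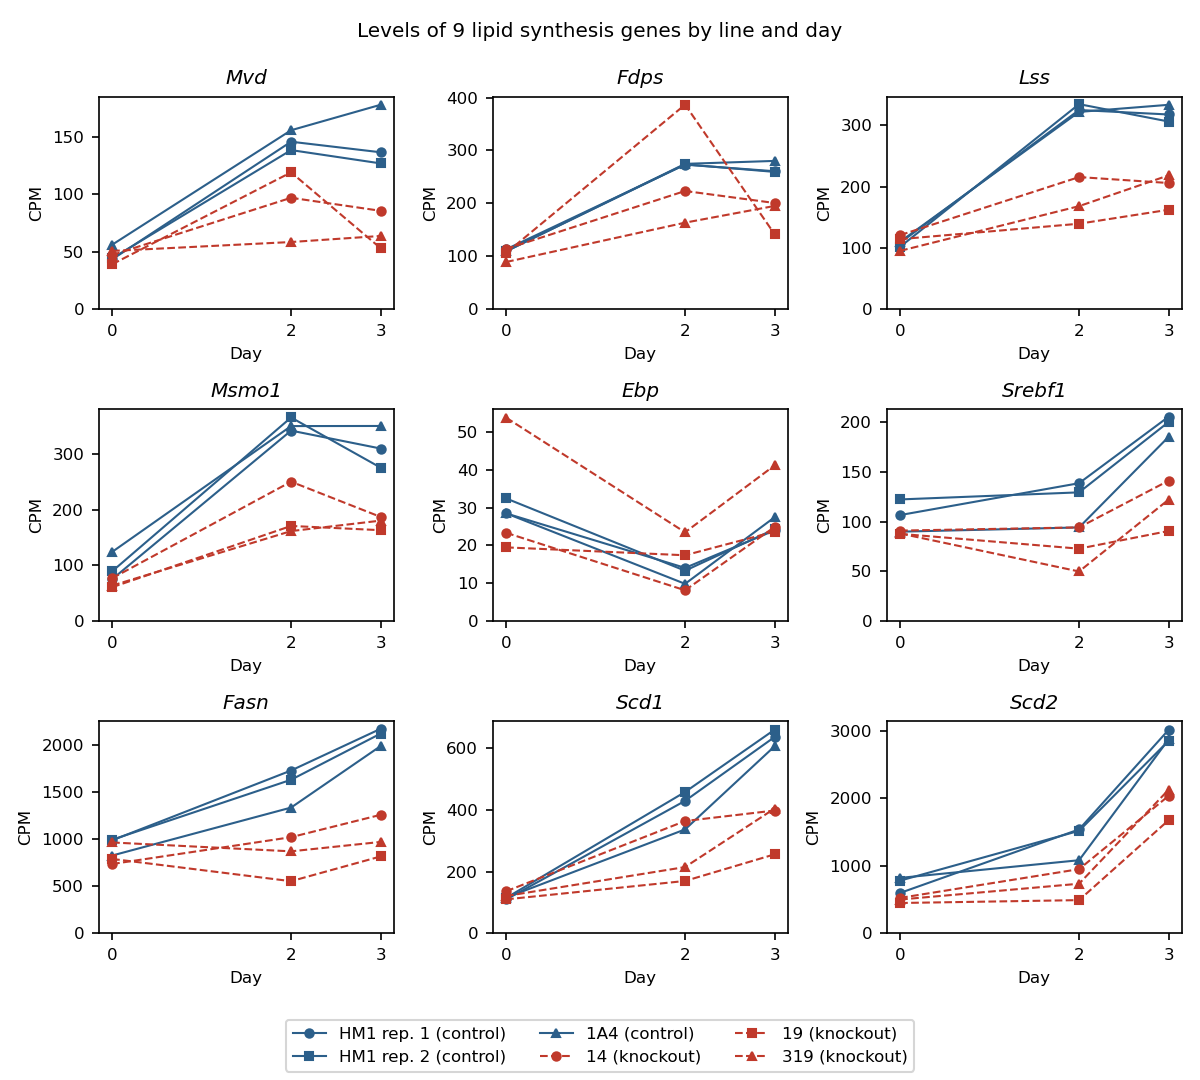
CPM of 9 of the genes at days 0, 2 and 3 (x axis), 1 line per cell line or HM1 replicate, with controls as solid blue lines and knockouts as dashed red lines, and y axes that start at 0. From day 2 on, controls lie above knockouts for Lss, Msmo1, Fasn and Scd2, while Ebp dips at day 2, with line 319 on top at each day.

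Between genotypes, members of both branches were lower in the knockout lines at days 2 and 3, and none was called at day 0. At day 0 the median difference was -0.11 and edgeR called 0 of the 31, where 0.854% of all genes were called, 0.0657% higher and 0.788% lower. At an unadjusted p below 0.05 there were 2, both lower, and DESeq2 also called 0, beside 3.06% of all genes. At day 2 the median was -0.40, 5 were called lower (16.1%) and 0 higher, where 1.6% of all genes were called, 0.963% lower and 0.635% higher. At day 3 the median was -0.49, 7 were called lower (22.6%) and 0 higher, where 5.19% of all genes were called, 2.44% lower and 2.75% higher. At an unadjusted p below 0.05 there were 17 at day 2 and 18 at day 3, all lower. How many of all genes passed that unadjusted threshold was not counted, so these numbers have no background beside them. DESeq2 called 10 and 12, all lower, where it called 7.69% and 11.3% of all genes in either direction. Genes with every knockout sample under every control sample numbered 6 at day 0 (9.7% of all genes tested), 12 at day 2 (11.7%) and 21 at day 3 (17.6%). The reverse held for 1 gene (Mvk) at day 0, beside 8.06% of all genes, and for 0 at days 2 and 3, beside 9.94% and 17.6%. Days 2 and 3 are different libraries of the same lines, so a difference between lines enters both.

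The genes called lower were Lss, Msmo1 and Fasn at both days, Acaca and Scd2 at day 2, and Mvd, Srebf1, Scd1 and Elovl6 at day 3. Of those called at day 2, Fasn (10050 bases), Acaca (9513), Lss (6992) and Scd2 (5455) were read from transcripts over 4279 bases. Msmo1 (2766 bases) was not. Transcripts of that length were low in line 19 at day 2, with a median deviation of -0.61 on the log2 scale. The part of length in these calls was not tested. In the sterol branch Lss was at 216, 139 and 168 CPM in day 2 knockouts and 206, 162 and 218 CPM at day 3, where the controls had 325, 335 and 322 CPM and 318, 306 and 334 CPM. The differences were -0.91 ± 0.16 (SE, adjusted p = 0.011) and -0.71 ± 0.16 (SE, adjusted p = 0.021), beside 0.04 ± 0.16 at day 0. Msmo1 was at 187, 163 and 180.3 CPM in day 3 knockouts and 309.5, 275 and 349.9 CPM in controls. Its differences were -0.85 ± 0.19 (SE, adjusted p = 0.038) at day 2 and -0.81 ± 0.19 (SE, adjusted p = 0.026) at day 3, and at day 0 it was at -0.51 ± 0.19 (SE, adjusted p = 0.31). Mvd was at 85.7, 53.1 and 63.7 CPM in day 3 knockouts and 137, 127 and 178 CPM in controls, with no overlap. Its differences were -1.12 ± 0.24 (SE, adjusted p = 0.016) at day 3 and -0.68 ± 0.24 (SE, adjusted p = 0.14) at day 2.
Mvd and Msmo1 lie on chromosome 8, of which line 319 has a gain. Their mean log2 difference over the days between line 319 and line 1A4 was -1.01 for each.
In the fatty acid branch Fasn was at 1258, 817 and 971 CPM in day 3 knockouts and 2170, 2119 and 1987 CPM in controls. The differences were -0.94 ± 0.21 (SE, adjusted p = 0.038) at day 2 and -1.04 ± 0.21 (SE, adjusted p = 0.013) at day 3, where the genotypes did not overlap at either day, and -0.17 ± 0.21 at day 0. Scd2 differed by -0.93 ± 0.21 (SE, adjusted p = 0.04) at day 2 and -0.58 ± 0.21 (SE, adjusted p = 0.12) at day 3, and was already at -0.57 ± 0.21 at day 0, where the genotypes did not overlap either. Acaca differed by -0.66 ± 0.15 (SE, adjusted p = 0.04) at day 2. At day 3 it was at 173, 154 and 152 CPM in controls and 144, 131 and 106 CPM in knockouts, with -0.33 ± 0.15 (SE, adjusted p = 0.21). Scd1 was at 637, 660.5 and 607 CPM in day 3 controls and 398, 256 and 405 CPM in knockouts. The knockout samples all lay lower, and the difference of -0.84 ± 0.23 had an adjusted p that rounds to 0.05 and lies under the threshold. Elovl6 was at 222, 229 and 213 and 169.6, 142 and 156 CPM at day 3, with -0.51 ± 0.13 (SE, adjusted p = 0.038).
Of the regulators, Srebf1 was lower at day 3, at -0.73 ± 0.19 (SE, adjusted p = 0.038). At day 2 it was at -0.74 ± 0.19 (SE, adjusted p = 0.06). Srebf2 was at -0.66 ± 0.20 (SE, adjusted p = 0.093) at day 2 and -0.63 ± 0.20 (SE, adjusted p = 0.073) at day 3, and its day 3 levels were 489, 511 and 527 CPM in controls and 409, 280.2 and 302 CPM in knockouts, without overlap. Dhcr7, which was not called either, was at -0.58 ± 0.17 (SE, adjusted p = 0.059) at day 3, with every knockout sample lower.
Positive differences were few. At day 2 they were Ebp (0.29 ± 0.33, SE, adjusted p = 0.65) and Mvk (0.11 ± 0.22, SE, adjusted p = 0.81). At day 3 there were 5, Idi1, Ebp, Ggps1, Hsd17b7 and Mvk, none of them called. Sqle and Cyp51 differed little at days 2 and 3, with -0.09 ± 0.12 and -0.08 ± 0.12 for Sqle and -0.09 ± 0.13 and -0.14 ± 0.13 for Cyp51.

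**Figure D4:**
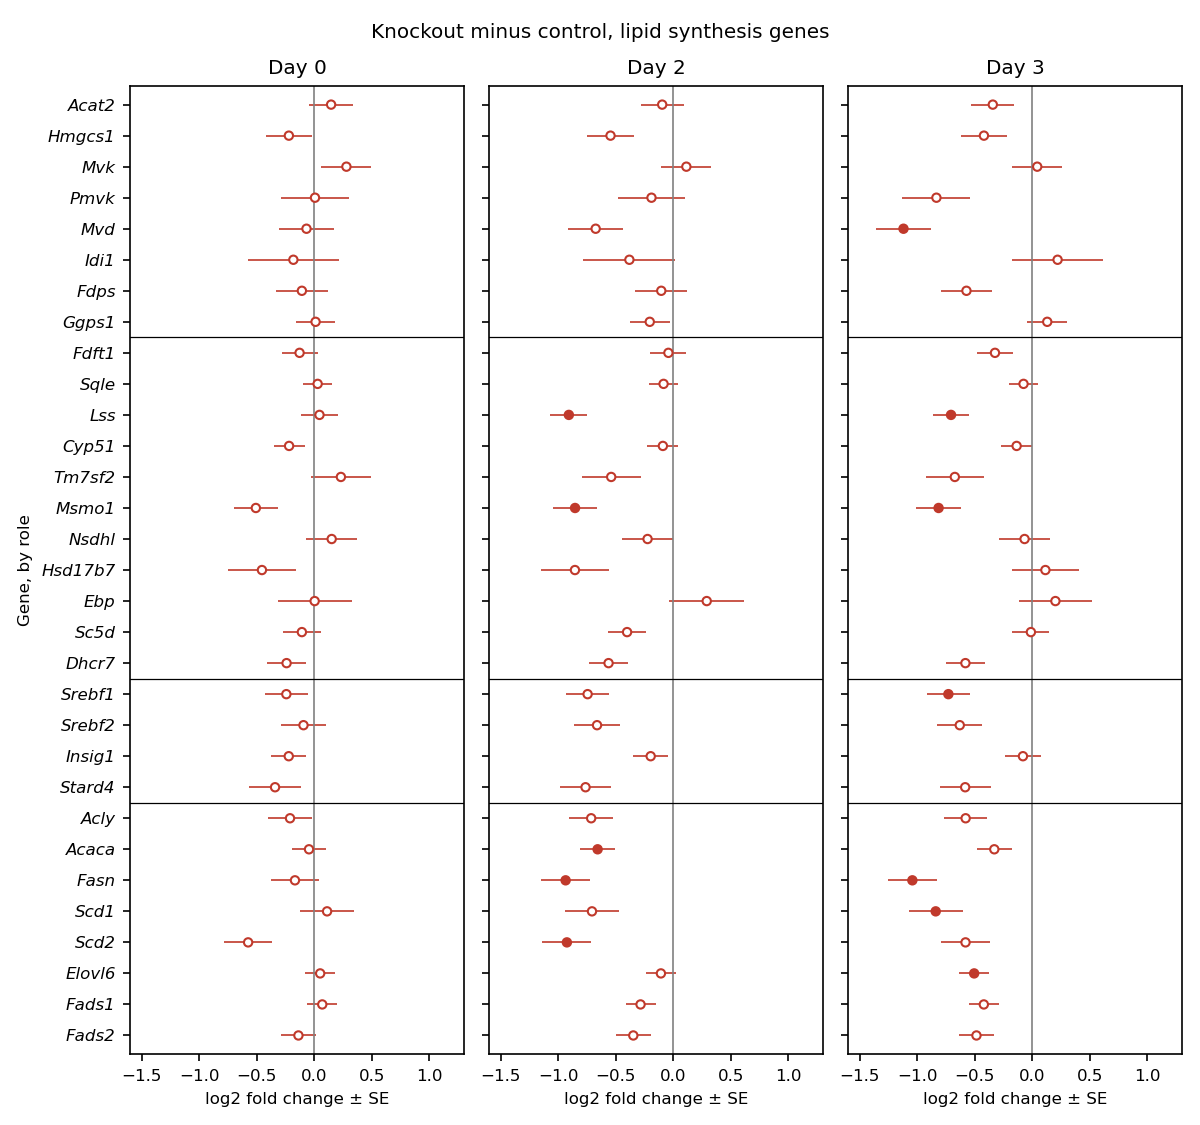
Knockout minus control as log2 fold change ± SE for each gene (rows, by role) at day 0, day 2 and day 3 (panels), with filled points for an adjusted p below 0.05. No point is filled at day 0, 5 are at day 2 and 7 at day 3, all left of 0.

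Whether the genotype difference itself changed from day 0 to day 2 was tested as an interaction, and edgeR called 0 of the 31, where it called 0.0219% of all genes (4 genes). The median change was -0.33, beside 0.025 over all genes tested, and 26 of the 31 were negative. At an unadjusted p below 0.05 there were 4, all lower, and DESeq2 called 1, lower, beside 0.416% of all genes. The largest was Lss, at -0.95 ± 0.23 (SE, adjusted p = 0.28), followed by Scd1 (-0.82 ± 0.33, SE, adjusted p = 0.62), Tm7sf2 (-0.77 ± 0.37, SE, adjusted p = 0.7) and Fasn (-0.77 ± 0.30, SE, adjusted p = 0.58). For Acaca and Nsdhl, called at day 2 in controls and not in knockouts, it was -0.61 ± 0.21 (SE, adjusted p = 0.54) and -0.38 ± 0.31 (SE, adjusted p = 0.81). The change from day 2 to day 3 had a median of 0.01, and again 0 genes were called, where 0.0383% of all genes were, 0.0274% higher. At an unadjusted p below 0.05 there were 2 of the 31, and DESeq2 called 0, beside 0.64% of all genes. Here too the unadjusted threshold was not counted over all genes. Without line 19 at day 2 the median change from day 0 to day 2 was -0.211 and 27 of the 31 were negative. In that refit 0 were called, beside 0.037% of all genes, and 9 had an unadjusted p below 0.05, again without a count over all genes. Lss was then at -0.82 ± 0.18 (SE, adjusted p = 0.17), Tm7sf2 at -0.92 ± 0.36 (SE, adjusted p = 0.5) and Fasn at -0.55 ± 0.22 (SE, adjusted p = 0.51).

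Each knockout line was also set against the controls of its own background, lines 14 and 19 against HM1 and line 319 against line 1A4. At day 2, 29 genes were lower in line 14, 25 in line 19 and 26 in line 319, with median log2 differences of -0.29, -0.81 and -0.49. At day 3 the numbers were 28, 26 and 26, with medians of -0.31, -0.64 and -0.46, and at day 0 they were 20, 23 and 22, with medians of -0.04, -0.13 and -0.15. Genes lower in all 3 lines numbered 14 at day 0, 20 at day 2 and 22 at day 3. These counts per line were not made over all genes tested, so no share stands beside them. Lines 14 and 19 were compared with the same HM1 samples, so their signs are not independent. Line 19 had the lowest median at days 2 and 3. Its transcript length trend was -1.14 at day 2 and 0.289 at day 3, and the part of length in either median was not tested. Line 14 had the smallest difference at each day.
Without HM1 replicate 1, none of the 5 calls at day 2 and none of the 7 at day 3 passed (edgeR adjusted p from 0.16 to 0.30 and from 0.12 to 0.21), and the same held without HM1 replicate 2 (0.18 to 0.30 and 0.10 to 0.26). Over all genes these refits called 22 and 25 genes at day 2 and 37 and 17 at day 3. Without line 1A4 0 and 1 of the calls passed (0.07 to 0.14 and 0.044 to 0.14), beside 0.62% and 1.88% of all genes. Log2 differences of the called genes lay between -1.225 and -0.484 in these refits. Without line 19 at day 2, 4 of the 31 were called at day 2, all lower, and 18 at day 3, all lower, where 2.08% and 15.8% of all genes were called in either direction. In that refit the 4 were Lss (-0.77 ± 0.14, SE, adjusted p = 0.012), Acaca (-0.51 ± 0.12, SE, adjusted p = 0.049), Fasn (-0.71 ± 0.17, SE, adjusted p = 0.047) and Pmvk, whose -0.78 had an adjusted p that rounds to 0.05, while Msmo1 and Scd2 were no longer called (-0.78 and -0.70, adjusted p = 0.063 and 0.053). With HM1 and its 2 derived lines only, 0 of the 31 were called at day 2 and 1 at day 3, beside 1.32% and 6.06% of all genes. The genotypes also differed in marker genes. The sum over 4 retinoic acid response genes was 464.3 to 573.4 CPM in day 3 controls and 818.3 to 920.5 CPM in day 3 knockouts, without overlap, and 5.33 to 6.58 and 1.58 to 3.15 CPM at day 2. The sum over 4 neural genes was 216 to 274 CPM in day 2 controls and 92.6 to 227 CPM in knockouts, and 281.5 to 330.0 and 259.6 to 885 CPM at day 3. From day 0 to day 2, Nes and Sox3 were called higher in both genotypes and Sox1 in neither. Pax6 changed by -1.02 ± 0.44 in controls and -1.43 ± 0.44 in knockouts, on the log2 scale (SE, edgeR adjusted p = 0.085 and 0.02). The pluripotency sum was 4609 to 5794 CPM in day 0 knockouts, above every day 0 control, 1204 to 1497 CPM at day 2 and 279.5 to 624 CPM at day 3. Their part in the differences, and that of the fibroblast genes, was not tested.

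Levels can be compared between genes only per length, and are given here as mean CPM per kilobase of the counted transcript. In day 0 controls the highest were Acly (182), Scd2 (135), Hmgcs1 (124), Fasn (93.1) and Fdps (80.0), and the lowest was Tm7sf2 (3.73). At day 2 the order was Hmgcs1 (268), Scd2 (253), Acly (244), Fdps (198) and Fasn (156), and Ebp had moved from place 21 to place 30 of the 31 (7.13). At day 3 Scd2 stood far above the rest at 534, followed by Hmgcs1 (268) and Fasn (208). Acly had moved to place 5 (150.1). In day 3 knockouts Scd2 (357) and Hmgcs1 (199) also led, and Fasn was at 101. Neighbours in these orders were not tested against each other.

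The genes around the pathway did not all move as the 31 did. Of the 4 genes that move and cut SREBPs (Scap, Insig2, Mbtps1 and Mbtps2), none was called between day 0 and day 2 in either genotype, where 35.2% and 35.9% of all genes were called. Scap, the escort of SREBPs, was at 44.3, 40.8 and 42.9 CPM in day 2 controls and 74.6, 68.5 and 73.4 CPM at day 3, a rise of 0.76 ± 0.15 (SE, adjusted p = 0.0022). In knockouts it went from 55.9, 50.9 and 64.5 to 115, 102 and 100.4 CPM, by 0.89 ± 0.15 (SE, adjusted p = 0.0005). It was higher in day 3 knockouts than in controls, by 0.55 ± 0.15 (SE, adjusted p = 0.046), the opposite direction to the members called. The list was split, with 2 positive and 2 negative differences among the 4 genes at that day (median -0.08). Only Scap was called, beside 5.19% of all genes.
Of 11 other enzymes of lipid synthesis, 6 were called higher and 0 lower at day 2 in controls (median 0.60) and 4 and 0 in knockouts (median 0.29), where 19.7% and 20.8% of all genes were called higher. The largest was Mid1ip1, a partner of acetyl-CoA carboxylase, at 1.09 ± 0.20 (SE, adjusted p = 0.00075) in controls and 1.37 ± 0.20 (SE, adjusted p = 0.00012) in knockouts. It fell again by day 3, with -1.41 ± 0.20 (SE, adjusted p = 0.00019) and -2.19 ± 0.21 (SE, adjusted p = 3.2e-06). Acss2, which makes acetyl-CoA from acetate, rose in controls at day 2 (0.80 ± 0.24, SE, adjusted p = 0.016), and its knockout value was 0.01 ± 0.24 (SE, adjusted p = 0.98). No gene of this list was called between genotypes at any day, where 0.854%, 1.6% and 5.19% of all genes were called at days 0, 2 and 3. Beside shares that small, 0 of 11 does not set the list apart. Their medians were 0.13, -0.13 and -0.33 at these days.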

How the data were processed

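Poly(A)+ RNA of 18 samples was sequenced as strand-marking TruSeq libraries, 4 technical libraries per sample, per the labels' protocols. The authors deposited whole-number counts of reads per Ensembl transcript id for each of the 72 libraries. The submitters' processing notes name bcl2fastq 2.17.1.14, STAR 2.4.0k, SAMtools, HTSeq and the build mm10. The annotation release, the strand setting of the counting and the role of each tool are not given in the sources used here. How reads shared by transcripts of 1 gene were counted is not given there either. Counts over all transcripts added up to 2.62 to 2.92 times those of the transcripts used, so levels rest on the transcript chosen.

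Of 110379 transcript ids, 108214 matched gene names in the GENCODE M21 annotation of GRCm38, giving 45321 genes. Unmatched ids held 1.44% to 2.48% of a sample's counts. Coordinates are those of the counted transcript. Technical libraries were added up. In R 4.3.3, edgeR 4.0.16 scaled the counts by TMM, filterByExpr kept 18273 genes, and a quasi-likelihood model with 6 groups and a term for genetic background (HM1 or blastocyst-derived) was fitted, with 11 residual degrees of freedom. P-values were adjusted by Benjamini-Hochberg over all genes tested, and every adjusted p comes from this fit unless another is named. SE is the log2 fold change divided by the square root of F. DESeq2 1.42.0 and other settings were tried as alternatives. The code was run on simulated counts with known changes. These had less spread than the real samples and no differences between lines or backgrounds, so that run says nothing of the calls given here. Depth of 16466730 to 54386782 counts per sample sets the counting error, and the spread between samples was larger (biological coefficient of variation 0.246).

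The same line was followed over the days, so samples pair across days by line. Deviations of same-line samples from their group means correlated above 0.1 in 15 of 18 pairs of days, and the exceptions were in line 19 and HM1 replicate 1. Controls and knockouts share no line and were not paired.

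The members and the gene lists were chosen with earlier results of these data known. Values of every sample, at the days compared, are given for the 3 members with the largest change among those called from day 0 to day 2 in controls in each role group. They are also given for members called between genotypes and for members called against their group. From the other lists, called genes at the extremes are named. Acss2, Abcg1, Soat1, Cpt2 and the members named for low or positive differences were picked after their values were seen.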

Additional observations from a re-analysis of the deposited data

Results flagged for a closer look

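For Nsdhl and Ebp the knockout minus control difference itself differed between the HM1-derived and the blastocyst-derived background. The tests of the difference gave 0.847 for Nsdhl (edgeR adjusted p = 0.01) and 1.122 for Ebp (adjusted p = 0.041), on the log2 scale, from a term that was added after seeing the data. The mean differences over the days in lines 14, 19 and 319 were -0.20, -0.47 and 0.52 for Nsdhl and -0.36, -0.11 and 0.92 for Ebp. The blastocyst-derived background holds 1 control line and 1 knockout line, each sampled on 3 days, so these p-values treat the days of 1 line as replicates. Both genes lie on the X chromosome, and line 319, the only knockout line of the blastocyst-derived background, is labelled XX while the other lines are labelled XY or likely XY. The part of the X chromosome in this difference was not tested. Over all genes the same term called 647 (3.54%).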

How the results depend on the processing

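No called log2 fold change of a member reversed in any refit. Of 104 calls between days, 71 were kept in all their refits, and of 12 calls between genotypes, 0 were. DESeq2 called 10 members between genotypes at day 2, 12 at day 3, and 1 in the change of the difference from day 0 to day 2 (7.69%, 11.3% and 0.416% of all genes). In the HM1-derived lines alone, 3 were called between day 2 and day 3 in controls, and 0 and 1 between genotypes at days 2 and 3 (18.9%, 1.32% and 6.06% of all genes). Without line 19 at day 2, 12 were called between day 2 and day 3 in controls and 18 between genotypes at day 3 (32.2% and 15.8% of all genes). Leaving out 1 line or replicate at a time gave 17 to 29 calls from day 0 to day 2 in controls and 13 to 23 in knockouts, where 15.3% to 47.4% and 20.6% to 41.3% of all genes were called. It gave 1 to 13 (6.57% to 33.9%) and 7 to 11 (23.4% to 40.6%) from day 2 to day 3, and 21 to 26 (31.8% to 61.3%) and 14 to 23 (37% to 52.4%) from day 0 to day 3. Between genotypes it gave 0 at day 0, 0 to 9 at day 2 (0.119% to 7.35% of all genes) and 0 to 9 at day 3 (0.0919% to 10.8%), and 0 for the changes of the difference. The 9 at day 2 were without line 14. In the fit with a replicate block, in which each line is paired with itself over the days, all 104 calls between days were kept. That paired fit called 24 higher and 1 lower from day 0 to day 2 in controls and 22 and 1 in knockouts, beside 35.5% and 35.4% of all genes. From day 2 to day 3 it called 5 and 2 in controls and 7 and 4 in knockouts, beside 21.8% and 32.6%. In the changes of the difference it called 0, beside 0.00547% and 0.0164%. With the replicate block and without line 19, a choice made after seeing the data, 14 were called between day 2 and day 3 in controls, beside 38.3% of all genes. Further calls lost in 1 to 8 of 16 refits were, from day 0 to day 2, Acat2, Elovl6, Nsdhl and Pmvk in controls and Acat2, Elovl6, Hmgcs1, Pmvk, Sc5d and Stard4 in knockouts (highest adjusted p 0.22), from day 2 to day 3 Sqle in controls and Srebf1 in both (0.15), and from day 0 to day 3 Elovl6, Fdft1 and Sqle in controls and Fdps, Hsd17b7, Nsdhl and Srebf2 in knockouts (0.17). The causes of these shifts were not tested. With 3 samples a group, of which 2 controls are 1 line, small differences are not detectable at this depth and spread.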

Other observations

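Genes of cholesterol export and storage were measured beside the synthesis genes. Abca1, which exports cholesterol to apolipoproteins and is a known target of the oxysterol receptors, was at 25.7, 29.3 and 28.2 CPM in day 0 controls, 1.86, 2.02 and 2.06 CPM at day 2 and 4.66, 3.97 and 3.69 CPM at day 3. It fell by 3.82 on the log2 scale between day 0 and day 2 (SE 0.56, edgeR adjusted p = 0.00011). In the knockouts it was at 46.2, 41.5 and 144, then 3.84, 0.754 and 11.02, then 14.3, 19.2 and 12.4 CPM, with line 319 highest at days 0 and 2. In the knockouts it fell by 3.88 on the same scale (SE 0.56, adjusted p = 8.3e-05). At day 3 every knockout sample lay above every control sample, by 1.92 ± 0.52 (SE, adjusted p = 0.045). This exporter thus differed in the direction opposite to the synthesis genes called at that day. Most of its list did not, with 2 positive and 7 negative differences among the 9 genes (median -0.10). Abca1 was the only 1 of them called at that day, beside 5.19% of all genes tested. Abcg1, another exporter of the same list, moved the other way from day 0 to day 2. It was at 12.9, 14.75 and 16.4 CPM in day 0 controls and 15.8, 21.05 and 9.70 CPM in day 0 knockouts. Every line was higher at day 2, with 26.6, 27.2 and 19.0 CPM in controls and 86.2, 65.5 and 34.6 CPM in knockouts. The difference between genotypes at day 2 was 1.34 ± 0.28 (SE, adjusted p = 0.029). At day 3 it was at 11.6, 11.9 and 14.4 and 12.2, 10.2 and 13.1 CPM, with -0.10 ± 0.28 (SE, adjusted p = 0.88). Soat1, which esterifies cholesterol for storage, rose between day 0 and day 2 by 1.54 ± 0.21 (SE, adjusted p = 5.5e-05) in controls and 1.67 ± 0.21 (SE, adjusted p = 2.7e-05) in knockouts. Of the 9 genes of this list, 2 were called higher and 1 lower in controls in that step (median -0.11), and 3 and 2 in knockouts (median 0.39). Of all genes tested 35.2% and 35.9% were called in that step.

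Fatty acid oxidation genes did not follow the synthesis genes. Of 10, 6 were called lower and 2 higher between day 0 and day 2 in controls (median -0.45), and 5 and 2 in knockouts (median -0.41). Of all genes, 15.5% and 15.1% were called lower. Cpt1a, which commits fatty acids to mitochondria, was at 48.4, 52.7 and 55.4 CPM in day 0 controls and 11.3, 14.9 and 13.9 CPM at day 2, a change of -1.96 ± 0.38 (SE, adjusted p = 0.00094). In knockouts it went from 38.6, 49.1 and 36.3 to 12.1, 4.45 and 19.3 CPM, by -1.83 ± 0.38 (SE, adjusted p = 0.0016). Cpt2, the enzyme on the inner membrane, rose in both, by 1.02 ± 0.14 (SE, adjusted p = 4.7e-05) and 1.15 ± 0.14 (SE, adjusted p = 1.6e-05). None of the 10 was called between genotypes by edgeR at any day. Of all genes tested, 0.854%, 1.6% and 5.19% were called at days 0, 2 and 3. Beside shares that small, 0 of 10 does not set the list apart. Of 6 genes that use the isoprenoid products, 2 were called lower at day 2 in controls (Fntb at -0.64 ± 0.19, SE, adjusted p = 0.018 and Pdss1 at -0.60 ± 0.17, SE, adjusted p = 0.011) and 1 in knockouts (Pdss1 at -0.56 ± 0.17, SE, adjusted p = 0.018). These numbers are to be read beside the 15.5% and 15.1% of all genes called lower in that step.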
